A study of Mus musculus with 24 samples.

Results

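The collagen genes are the 44 rows, of 33079 in the table, whose symbol is Col followed by a chain number and a lower-case a with a second number, and each of the 44 symbols occurred once. They comprised 11 fibrillar, 6 basement membrane, 3 network and 9 FACIT (fibril-associated) collagen genes, with 6 beaded filament, 1 anchoring fibril, 2 multiplexin, 4 transmembrane and 2 unclassed genes. RNA-seq was performed on mouse embryonic stem (mES) cells that were differentiated through embryoid bodies to day 28 and given 100 nM dexamethasone, a glucocorticoid that sets the phase of cellular clocks. Control cells carried a Per2::Luciferase knock-in (WT), and the compared cells carried the same knock-in and were Rev-erba/Rev-erbb deficient (KO). The KO cells thus lack nuclear receptors that are among the transcriptional repressors of the clock. Each genotype has 12 libraries, 1 for each time point from 12 to 56 h after dexamethasone in steps of 4 h, and each library holds the RNA of 3 pooled embryoid bodies. The KO cells grew from selected colonies after a second round of gene targeting, that of Rev-erbα in cells without Rev-erbβ, so the genotype and the cell line cannot be told apart. The mES cells had been kept on fibroblast feeders before differentiation. The deposited gene-level values cannot show the deletion of a single exon, and the genotype of a library rests on its label.

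Collagens are proteins of 3 chains wound into a triple helix. Fibrillar collagens (types I, II, III, V and XI) assemble into the banded fibrils that carry tension in dermis, bone, tendon and cartilage, and FACIT collagens sit on the surface of those fibrils. Type IV collagen forms the sheet beneath epithelia and around vessels and muscle, type VIII forms a hexagonal lattice, type VI forms beaded filaments, and types VII and XVII anchor the epidermis to the dermis. Chains are hydroxylated and folded in the endoplasmic reticulum, trimmed by propeptidases and cross-linked outside the cell.

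Values are RPKM, the fragments on the exons of a gene scaled by exon length and by the library total, so that levels can be set side by side between genes. Fragments on exons ranged from 6183500.5 to 10287969 per library. Genes with a mean above 0.5 RPM (RPKM times exon length in kilobases) in WT or KO were tested, which left 15112 genes, and 41 of the 44 collagen genes were among them. Col10a1, Col6a4 and Col19a1 were below that limit, with at most 12.5 fragments in any library. In these bulk samples, fewer cells of a type and less RNA per cell cannot be told apart. The WT library at 36 h stood apart in skeletal genes, with the bone gene Ibsp at 12.55 RPKM against at most 0.0376 in the other 23 libraries and the cartilage gene Acan at 0.672 against at most 0.188. Of the WT libraries it was also the highest for the neuron and glia markers Tubb3, Map2 and Gfap. These had 21.7, 2.33 and 20.9 RPKM there, against WT medians of 6.74, 0.653 and 2.36. The WT library at 36 h was the highest WT library for 10 of the 41 tested collagen genes, a share not computed for all genes. Among them were the cartilage chains Col2a1, Col9a2, Col9a3 and Col11a2, and values without this library are given beside these.

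The bases before the transcription start are shown for Col1a2, the most abundant collagen gene, for Col3a1, the abundant fibrillar gene that differed most between the genotypes and over time, and for Col5a3, which showed the largest rise in KO among the collagen genes. They are the 250 bases before the RefSeq start on GRCm38.p6, 5′ to 3′ on the strand of the gene, at chr6:4505368-4505617 (+), chr1:45311288-45311537 (+) and chr9:20815068-20815317 (-). Capitals mark CCAAT in Col1a2 and Col5a3, the element read by NF-Y, and TATAAA in Col3a1.
Col1a2: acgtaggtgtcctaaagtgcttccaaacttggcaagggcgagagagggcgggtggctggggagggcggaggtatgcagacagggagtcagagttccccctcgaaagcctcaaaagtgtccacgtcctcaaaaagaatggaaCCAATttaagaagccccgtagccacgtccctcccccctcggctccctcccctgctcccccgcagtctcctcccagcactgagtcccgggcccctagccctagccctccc
Col3a1: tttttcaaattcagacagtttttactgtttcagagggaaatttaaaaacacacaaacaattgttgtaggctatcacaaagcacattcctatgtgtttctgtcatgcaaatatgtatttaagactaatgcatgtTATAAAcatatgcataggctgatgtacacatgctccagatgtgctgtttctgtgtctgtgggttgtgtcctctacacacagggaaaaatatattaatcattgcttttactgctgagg
Col5a3: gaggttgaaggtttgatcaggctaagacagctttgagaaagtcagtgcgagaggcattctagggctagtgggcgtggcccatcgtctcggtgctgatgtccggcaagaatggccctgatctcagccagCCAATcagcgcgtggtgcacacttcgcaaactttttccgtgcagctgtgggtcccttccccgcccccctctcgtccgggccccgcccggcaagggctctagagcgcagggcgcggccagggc

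Genes for type IV collagen lie head to head in pairs, each pair being transcribed away from a common stretch. For the 2 pairs whose starts are closest, that stretch is shown on the minus strand, the strand of Col4a4 and of Col4a1. The 71 bases at chr1:82586850-82586920 lie between the starts of Col4a4 and Col4a3, and the 22 bases at chr8:11312805-11312826 belong to the first exon of both Col4a1 and Col4a2. The libraries were made without strand marking, so fragments on those 22 bases cannot be assigned to 1 of the 2 genes. The starts of Col4a6 and Col4a5 are separated by 1342 bases.
Col4a4/Col4a3: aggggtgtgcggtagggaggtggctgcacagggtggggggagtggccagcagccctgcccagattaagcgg
Col4a1/Col4a2: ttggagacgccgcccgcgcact

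RefSeq windows from 250 bases before to 50 bases after the start were at hand for 35 of the 44 genes. TAGGTCA, the core of the element bound by REV-ERB, was searched on both strands and was in 0 of these genes' windows, against 2.61% of 32851 windows of all genes. Its shorter part AGGTCA was found in 8 genes (Col11a1, Col20a1, Col23a1, Col24a1, Col4a4, Col6a5, Col7a1 and Col9a1), which is 21.1% of the collagen windows against 16.3% of all windows. The match of Col4a4 lies 84 bases before its start, which is 13 bases inside Col4a3. The E-box CACGTG, bound by CLOCK/BMAL1, was in 0 collagen windows against 7.15% of all. CCAAT was in 13 genes or 34.2% of the collagen windows against 37.4% of all, and TATAAA in 5 genes or 13.2% against 13.6%. No match says only that these letters are not in these windows.

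Collagen transcripts were among the most abundant in these cells. Col1a2, Col1a1, Col3a1, Col4a1 and Col4a2 ranked 6, 8, 14, 20 and 33 by mean RPKM among the 15112 genes. These 5 genes made up 78.6% to 80.3% of the fragments on collagen genes in WT libraries and 79.2% to 81.2% in KO libraries. All collagen genes together took a median of 5.10% of the fragments on exons in WT (range 4.71% to 5.77%, n = 12) and 5.72% in KO (4.98% to 6.20%, n = 12). The KO share exceeded that of WT at 11 of 12 time points, the exception being 36 h. Fibrillar genes had a median share of 3.20% in WT and 3.69% in KO, while basement membrane genes had 1.40% and 1.43%.

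**Figure D1:**
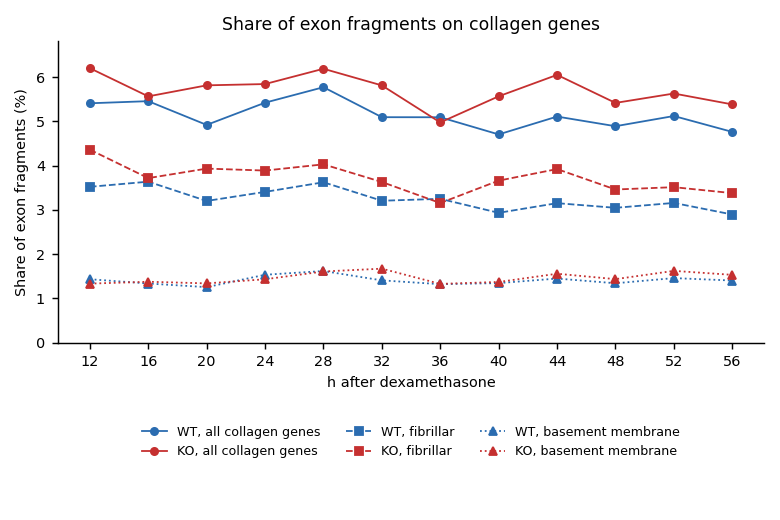
Share of exon fragments (%) on all, fibrillar and basement membrane collagen genes against hours after dexamethasone, 1 point per library, WT in blue and KO in red. The KO line for all collagen genes lies above WT at 11 of 12 time points, and that for basement membrane genes at 9 of 12.

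Levels were compared between the 12 WT and 12 KO libraries with limma on log2(RPKM + 0.1), and a gene was called at a Benjamini-Hochberg adjusted p under 0.05 over all genes tested. Of the 41 collagen genes, 12 (29.3%) were higher in KO, where 11.2% of all genes tested were. Another 6 (14.6%) were lower, near the 14.7% of all genes, and 23 did not pass. Their median difference was 0.06 on the log2 scale. The ranges of the 2 genotypes did not overlap for 0 genes higher in KO (0.199% of all genes) and for 1 gene lower in KO, Col14a1 (0.410% of all genes).

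**Figure D2:**
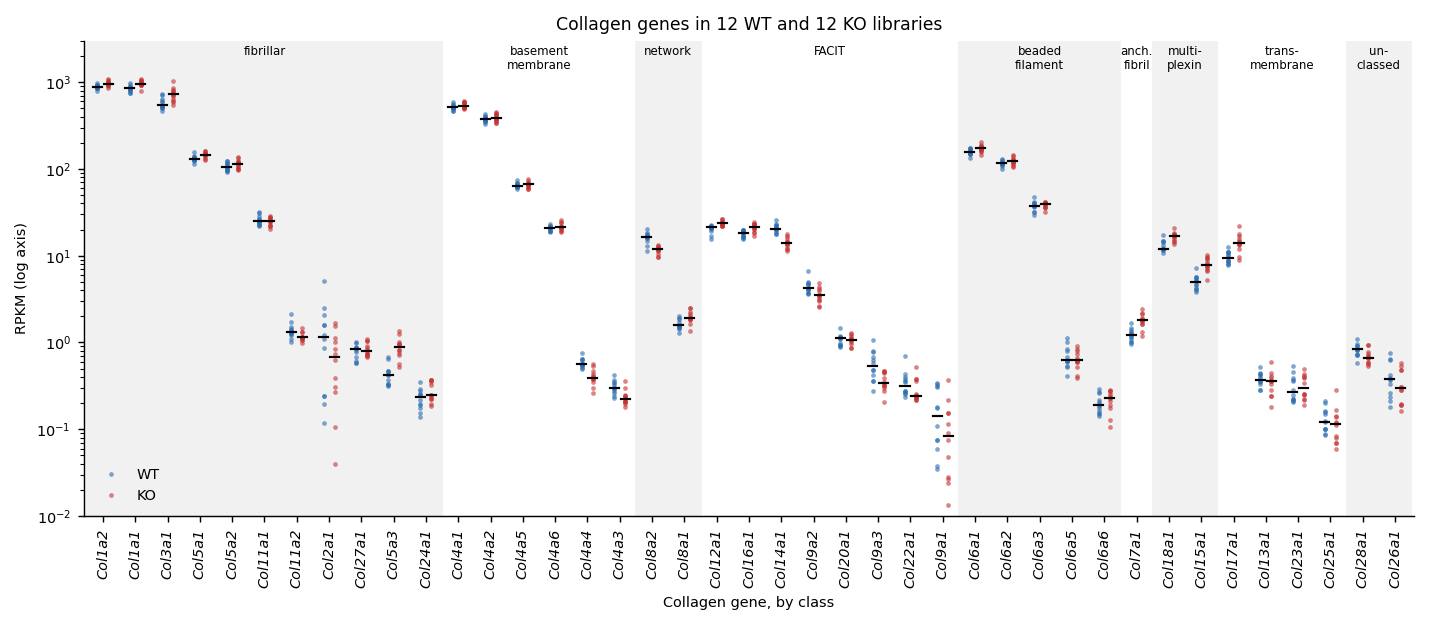
RPKM on a log axis for the 41 collagen genes tested, grouped by class and ordered by level, with 1 point per library (12 WT in blue, 12 KO in red) and a bar at the median. Levels ran from a mean of 972 RPKM in KO for Col1a1 down to 0.110 for Col9a1, and the points of most genes overlap between the genotypes.

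Of the 11 fibrillar genes, 5 were higher in KO, 0 were lower and 6 did not pass. The major chains of type I collagen and the type III chain were among the 5. Col1a1 (chr11:94936224-94953042), which encodes the α1 chain of type I, had 748, 852 and 966 RPKM as the lowest, median and highest value in WT and 781, 963 and 1090 in KO. Its difference was 0.21 ± 0.05 (log2, SE; limma adjusted p = 0.00312), and KO exceeded WT at 11 of 12 time points. Col1a2, the α2 chain of type I, had 786, 869 and 973 RPKM in WT and 848, 954 and 1075 in KO, a difference of 0.13 ± 0.04 (log2; limma adjusted p = 0.014). Ranges overlapped for both chains, with the KO medians close to the highest WT libraries.

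Col3a1 (chr1:45311538-45349706), the only chain of type III collagen of skin and vessel walls, had 469, 538 and 728 RPKM in WT and 545, 721 and 1020 in KO. The KO library was the higher at each of the 12 time points, although the ranges over all hours overlapped. The difference was 0.35 ± 0.09 (log2; limma adjusted p = 0.00685). Col5a1, the type V chain that starts fibril assembly, had 113, 130 and 156 RPKM in WT and 127, 146 and 161 in KO, a difference of 0.14 ± 0.05 (log2; limma adjusted p = 0.0225). Its call was lost when the libraries of 20, 40 or 44 h were left out, with adjusted p of 0.051, 0.0536 and 0.0598.

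Quantile normalization, which gives all libraries the same distribution, ended the calls of 3 abundant genes of the class: Col1a2 (0.01 on the log2 scale, limma adjusted p = 0.933), Col5a1 (0.05, adjusted p = 0.521) and Col3a1 (0.24, adjusted p = 0.0942). Col1a1 kept its call under it. The mesenchyme or fibroblast markers, which are made by the cells that secrete these chains, moved both ways: of 6 tested, Dpt, Prrx1 and Thy1 were higher in KO and Pdgfra and Twist1 lower. Their summed level was 51.8 to 59.8 RPKM in WT and 49.4 to 59.1 in KO, and their part in the collagen values was not tested.

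Col5a3 (chr9:20770057-20815067), a minor type V chain, showed the largest rise. It had 0.316, 0.423 and 0.674 RPKM in WT and 0.527, 0.878 and 1.37 in KO, which is a difference of 0.88 ± 0.13 (log2; limma adjusted p = 4.47e-05), 2.05 times as a ratio of means. KO exceeded WT at each of the 12 time points, and the lowest KO libraries lay below the highest WT libraries. The level was low, with a mean of 46.3 fragments in a WT library and 92.9 in a KO library.

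Col5a2 (92.97, 104 and 125 RPKM in WT, 97.3, 114 and 136 in KO; limma adjusted p = 0.279) and Col11a1 (22.2, 25.0 and 32.1 in WT, 20.6, 24.9 and 28.5 in KO; 0.58) did not pass. Neither did Col11a2, Col24a1 and Col27a1, with medians of 0.233 to 1.33 RPKM in WT. Col2a1, the chain of cartilage fibrils, ranged over the widest span of the class, with 0.119, 1.16 and 5.07 RPKM in WT and 0.0401, 0.682 and 1.69 in KO (adjusted p = 0.382). Its highest value was the WT library at 36 h, and the next was 2.52 at 28 h. Without that library the WT mean fell from 1.40 to 1.07 RPKM and the difference was -0.42 (adjusted p = 0.576). For Col11a2 it was -0.21 (adjusted p = 0.0688) with and -0.16 (0.109) without it.

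Of the 6 basement membrane genes, 0 were higher in KO, 2 were lower and 4 did not pass. The genes split by level. Col4a1 and Col4a2 encode the chains of the type IV network found in nearly all basement membranes, and Col4a5 and Col4a6 those of smooth muscle and some epithelia. Col4a1 had 461, 512 and 596 RPKM in WT and 487, 530 and 613 in KO (0.08 ± 0.05, limma adjusted p = 0.22). Col4a2 had 328, 377 and 434 in WT and 339, 388 and 455 in KO (0.06 ± 0.05, adjusted p = 0.44). Col4a5 (medians 63.7 and 66.4, adjusted p = 0.712) and Col4a6 (medians 20.8 and 21.6, adjusted p = 0.371) also lay at overlapping levels.

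Col4a3 and Col4a4, which join Col4a5 in the network of the kidney glomerulus and other specialised membranes, were the 2 lower genes and had the lowest levels of the class. Col4a4 (chr1:82450723-82586849) had 0.495, 0.559 and 0.747 RPKM in WT and 0.265, 0.395 and 0.560 in KO, a difference of -0.45 ± 0.08 (log2; limma adjusted p = 0.000305). Col4a3 (chr1:82586921-82722059) had 0.232, 0.299 and 0.425 RPKM in WT and 0.179, 0.222 and 0.3603 in KO, a difference of -0.29 ± 0.08 (log2; adjusted p = 0.00853). Each was below its WT level at 11 of 12 time points in KO. A WT and a KO library held on average 79.3 and 55.2 fragments of Col4a4 and 46.1 and 35.6 of Col4a3, and quantile normalization ended the call of Col4a3 (-0.21, adjusted p = 0.0857). Col4a3 shares 289 bases with a transcript on the opposite strand, AK049449, whose fragments cannot be told apart there, and Col4a4 was at -0.60 (adjusted p = 0.0067) over 12 to 32 h and -0.30 (0.0622) over 36 to 56 h.

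The 2 tested network genes went opposite ways. Col8a2 (chr4:126286794-126314330), a type VIII chain of the endothelial layer of the cornea and of vessel walls, had 11.2, 16.3 and 20.2 RPKM in WT and 9.59, 11.8 and 13.3 in KO. The difference was -0.47 ± 0.07 (log2; limma adjusted p = 9.68e-05), and the KO value was the lower at all time points but 56 h. Its partner Col8a1 had 1.28, 1.57 and 2.02 RPKM in WT and 1.35, 1.92 and 2.52 in KO, a difference of 0.26 ± 0.08 (log2; adjusted p = 0.026). That call was lost when the libraries of 16, 24, 40 or 44 h were left out, with adjusted p from 0.0506 to 0.0792, and the difference was 0.15 (adjusted p = 0.43) over 12 to 32 h and 0.37 (0.0715) over 36 to 56 h. Col10a1, the chain of hypertrophic cartilage, had a mean of 0.0427 RPKM in WT and 0.0232 in KO and was highest in the WT library at 36 h (0.195). It lies wholly within Nt5dc1 on the opposite strand, from which its fragments cannot be told apart here.

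Of the 9 FACIT genes, 8 were tested: 2 were higher in KO, 3 were lower and 3 did not pass. Col14a1 (chr15:55307750-55520803), which limits the growth of fibril diameter, was the collagen gene with the clearest separation. It had 17.9, 20.5 and 25.9 RPKM in WT and 11.2, 13.96 and 17.9 in KO, so that the highest KO library lay just below the lowest WT library. The difference was -0.57 ± 0.07 (log2; limma adjusted p = 6.58e-06), and the KO value was the lower at 12 of 12 time points. Col12a1 and Col16a1, which bridge type I fibrils and other matrix proteins, went the other way. Col12a1 had 15.6, 21.3 and 22.7 RPKM in WT and 21.8, 23.6 and 26.8 in KO, a difference of 0.23 ± 0.06 (log2; adjusted p = 0.00439), with KO above WT at 12 of 12 time points. Col16a1 had 15.8, 18.1 and 19.9 RPKM in WT and 16.9, 21.7 and 24.2 in KO (0.23 ± 0.06, adjusted p = 0.00528).

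The chains of type IX collagen, which coats cartilage fibrils, were all at lower means in KO, with 2 of 3 past the test. Col9a2 had 3.64, 4.22 and 6.63 RPKM in WT and 2.58, 3.49 and 4.88 in KO, a difference of -0.33 ± 0.10 (log2; limma adjusted p = 0.017). Col9a3 had 0.273, 0.535 and 1.06 RPKM in WT and 0.207, 0.337 and 0.470 in KO, a difference of -0.50 ± 0.15 (log2; adjusted p = 0.0174). Col9a3 shares 229 bases with Tcfl5 on the opposite strand, which had a mean of 2.41 RPM against 1.32 for Col9a3, and fragments on those bases cannot be told apart. The WT library at 36 h held the highest value of both, and without it the differences were -0.28 (adjusted p = 0.0282) and -0.43 (adjusted p = 0.0294). Col9a1 (means 0.170 and 0.110 RPKM, adjusted p = 0.31), Col20a1 (1.08 and 1.07, 0.961) and Col22a1 (0.351 and 0.293, 0.301) did not pass. Col19a1 was not tested, at means of 0.0167 and 0.0137 RPKM.

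Of 5 cartilage markers, Sox9, which also marks other progenitors, was higher in KO, Hapln1 was lower, Acan did not pass, and Matn1 and Matn3 were below the limit for testing. Their summed level was 1.65 to 3.23 RPKM in WT and 2.16 to 3.46 in KO, and Acan was at a median of 0.0171 RPKM in WT and 0.00632 in KO. Their part in the difference was not tested.

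Among the remaining classes, genes of the epidermal junction and the multiplexins of the basement membrane zone were higher in KO. Col15a1, a multiplexin of vessels and muscle, had 3.81, 4.92 and 7.25 RPKM in WT and 5.19, 7.86 and 10.2 in KO, a difference of 0.67 ± 0.10 (log2; limma adjusted p = 7.87e-05), with KO above WT at 12 of 12 time points. Col18a1, the source of endostatin, had 10.8, 12.1 and 17.3 RPKM in WT and 13.6, 16.99 and 21.1 in KO (0.36 ± 0.07, adjusted p = 0.00108). Markers of smooth muscle were higher for 3 of 4 genes (Tagln, Myh11 and Cnn1), with a summed level of 233 to 323 RPKM in WT and 246 to 361 in KO, and those of endothelium for 1 of 3 (Pecam1), with 4.15 to 16.6 and 7.69 to 14.7 RPKM. Their part in the multiplexin values was not tested.

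Col17a1 (chr19:47646341-47692042), the transmembrane collagen of hemidesmosomes, had 7.80, 9.48 and 12.7 RPKM in WT and 8.92, 14.1 and 21.8 in KO, a difference of 0.54 ± 0.12 (log2; limma adjusted p = 0.00171). It was 0.40 (adjusted p = 0.129) over 12 to 32 h and 0.67 (0.0205) over 36 to 56 h. Col7a1, which forms the anchoring fibrils below them, had 0.953, 1.23 and 1.70 RPKM in WT and 1.19, 1.80 and 2.42 in KO (0.50 ± 0.10, adjusted p = 0.000663). KO exceeded WT at 11 of 12 time points for both, and both were highest in the KO library at 40 h. The basal epithelium markers Krt5, Krt14 and Trp63 were 3 of 3 higher in KO. They too were highest in the KO library at 40 h, with a summed level of 195 to 351 RPKM in WT and 288 to 780 in KO. The 3 markers of simple epithelium were also 3 of 3 higher, at 127 to 254 RPKM in WT and 228 to 387 in KO. Their summed level was likewise highest in the KO library at 40 h, as were Krt8 and Krt18, while Epcam was highest in KO at 36 h. The part of either list in the values of Col17a1 and Col7a1 was not tested.

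Beaded filament genes did not pass in any of the 5 tested. Col6a1, Col6a2 and Col6a3, the chains of the common type VI filament, had medians of 158, 116 and 37.7 RPKM in WT and 172, 123 and 39.8 in KO, with limma adjusted p of 0.0576, 0.198 and 0.608. Col6a5 and Col6a6 were below 1.12 RPKM in each library, and Col6a4 was not tested (means 0.0291 and 0.0431 RPKM). The transmembrane genes Col13a1, Col23a1 and Col25a1 and the unclassed Col26a1 and Col28a1 did not pass either, with means of 0.121 to 0.831 RPKM and the smallest adjusted p of 0.0585 for Col28a1.

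**Figure D3:**
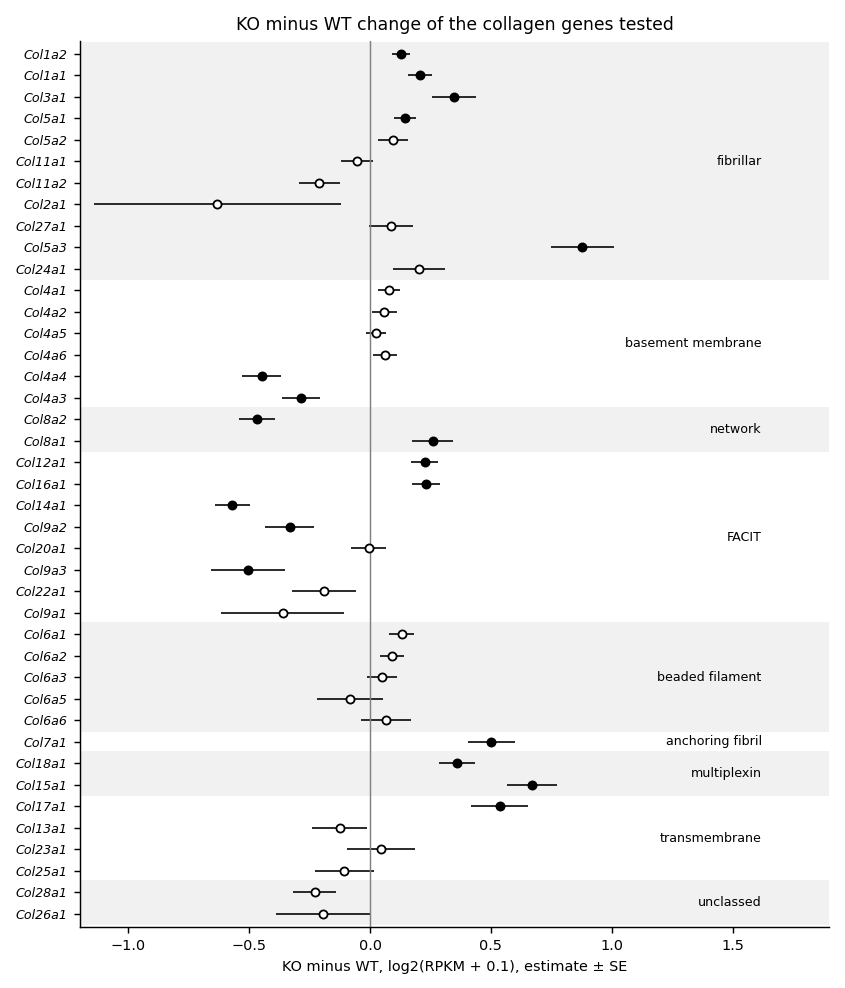
KO minus WT difference in log2(RPKM + 0.1) with its SE from limma for the 41 collagen genes tested, by class, where filled points have an adjusted p under 0.05. Col5a3 (0.88) lies farthest to the right and Col14a1 (-0.57) farthest to the left among the filled points, and the 4 abundant type IV chains lie close to 0.

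Chains of 1 collagen type were then set against each other within each library, where library scaling cancels. Of 5 ratios, 2 differed between the genotypes when library labels were permuted 100000 times (permutation test of the mean, two-sided, adjusted over the 5 ratios). Col8a1/Col8a2 was 0.102 ± 0.016 in WT and 0.173 ± 0.042 in KO (SD, n = 12 each; permutation test, adjusted p = 0.0001, from the smallest p these permutations can give), with KO above WT at 12 of 12 time points. Col1a1/Col1a2 was 0.953 ± 0.048 in WT and 1.01 ± 0.04 in KO (permutation test, adjusted p = 0.0173), and it was higher at 9 of 12. With WT and KO exchanged only within an hour (exact sign-flip test), its adjusted p was 0.0555. The ratio for type VI, Col6a1/Col6a2, was 1.36 ± 0.03 and 1.40 ± 0.06 (adjusted p = 0.12, permutation test). Col4a1/Col4a2 stood at 1.37 ± 0.04 and 1.39 ± 0.05 (adjusted p = 0.369, permutation test), and Col5a1/Col5a2 at 1.24 ± 0.10 and 1.28 ± 0.11 (adjusted p = 0.369, permutation test).

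**Figure D4:**
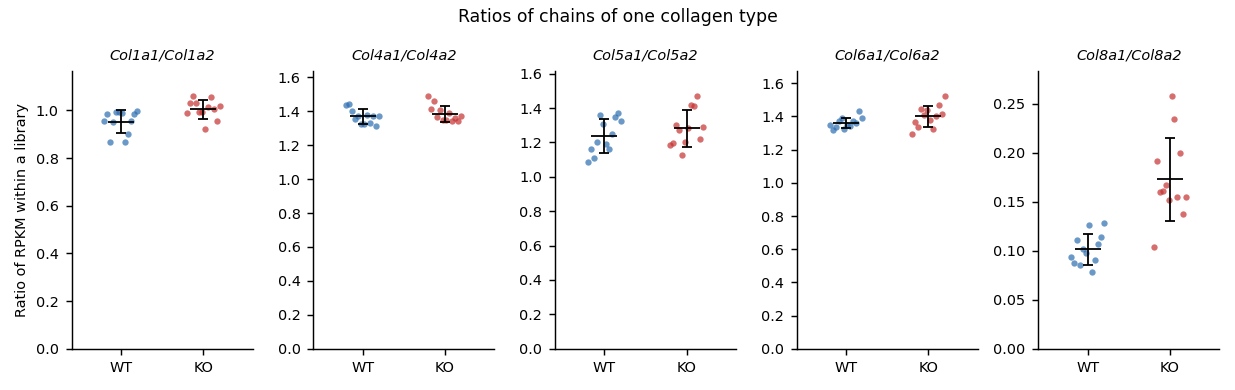
Ratio of RPKM of chains of one collagen type in each library, WT in blue and KO in red, with the mean and SD in black and the axes starting at 0. Col8a1/Col8a2 is shifted upward in KO (0.173 against 0.102). For Col1a1/Col1a2 the KO median (1.01) lies above the highest WT library (0.996), although the ranges overlap. The remaining ratios overlap over most of their range.

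Levels of chains of one type were related over the time points of a genotype for some pairs and not for others. Relations were computed for 7 pairs in each genotype, 14 in all, over 12 libraries that differ in hour and share their scaling. Col4a1 and Col4a2 had a Pearson r of 0.92 in WT and 0.96 in KO (permutation, adjusted p = 0.00014 and 7e-05), a Spearman rho of 0.90 and 0.97 (permutation, adjusted p = 0.000644 and 7e-05), and an r of 0.81 and 0.93 without the 2 libraries farthest from the median. Adjusted values of 7e-05 come from the smallest p these permutations can give. Col6a1 and Col6a2 had an r of 0.96 and 0.89 (permutation, adjusted p = 7e-05 and 0.00042) and a rho of 0.99 and 0.90 (permutation, adjusted p = 7e-05 and 0.000644), with an r of 0.90 and 0.77 without 2 libraries. Col4a3 and Col4a4 had an r of 0.39 in WT (permutation, adjusted p = 0.209) and 0.71 in KO (0.0183), with a rho of 0.29 (0.357) and 0.52 (0.108), and the relation in KO rested on 2 libraries, without which r was 0.24. Col8a1 and Col8a2 had an r of 0.44 and -0.48 (permutation, adjusted p = 0.159 and 0.129) and a rho of 0.32 and -0.31 (both 0.357). For Col1a1 and Col1a2, r was 0.77 in WT and 0.90 in KO (permutation, adjusted p = 0.00915 and 0.000245). For Col5a1 and Col5a2 it was 0.62 and 0.70 (permutation, adjusted p = 0.042 and 0.0195). For Col3a1 and Col1a1, of different types, it was 0.49 and 0.59 (permutation, adjusted p = 0.129 and 0.0672).

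In both genotypes, 4 of the 11 fibrillar genes fell over the days after dexamethasone (Col3a1, Col5a2, Col11a1 and Col5a3), and 7 did not pass, among them Col1a1 and Col1a2. In a limma fit with a linear trend and a 24 h cosine and sine for each genotype, 5 of 41 collagen genes fell in WT (12.2%, against 1.26% of all genes tested) and 0 rose (1.11% of all genes). In KO 4 fell (9.76%, against 1.04% of all genes) and 0 rose (1.34% of all genes). The trends of all 11 fibrillar genes were negative in both genotypes, with medians of -0.26 in WT and -0.22 in KO on the log2 scale per 24 h. Over all genes tested the medians were 0.009 in WT and -0.011 in KO, and over the 41 collagen genes -0.08 and -0.07. The beaded filament genes had medians of 0.12 and 0.04.

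Col3a1 went from 705 RPKM at 12 h to 469 at 56 h in WT and from 1020 to 545 in KO. Its trend was -0.32 ± 0.06 per 24 h in WT (log2; limma adjusted p = 0.00449) and -0.37 ± 0.06 in KO (adjusted p = 0.00224). Col5a2, which pairs with Col5a1 in type V, had trends of -0.24 ± 0.05 (adjusted p = 0.00854) and -0.26 ± 0.05 (0.00514). Col11a1, which nucleates cartilage fibrils and is also made by other mesenchyme, had -0.29 ± 0.05 (adjusted p = 0.00752) and -0.22 ± 0.05 (0.0359), the latter past the threshold only with the rhythm terms in the model (0.0513 without). Col5a3 had -0.39 ± 0.10 (adjusted p = 0.0431) and -0.41 ± 0.10 (0.0338), and its call in WT was lost with a pseudocount of 1 (-0.15, 0.116).

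Outside the fibrillar class, Col8a2 fell in WT, from 20.2 RPKM at 12 h to 11.2 at 56 h (-0.32 ± 0.07 per 24 h, limma adjusted p = 0.0168), and its trend in KO was -0.15 ± 0.07 (0.256). The difference in trend between the genotypes passed for 0 collagen genes and for 0% of all genes (limma), and for Col8a2 its adjusted p was 0.805. At an unadjusted p under 0.05 the difference in trend passed for 1 collagen gene, Col4a4, which is 2.44% of those tested against 6.38% of all genes.

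**Figure D5:**
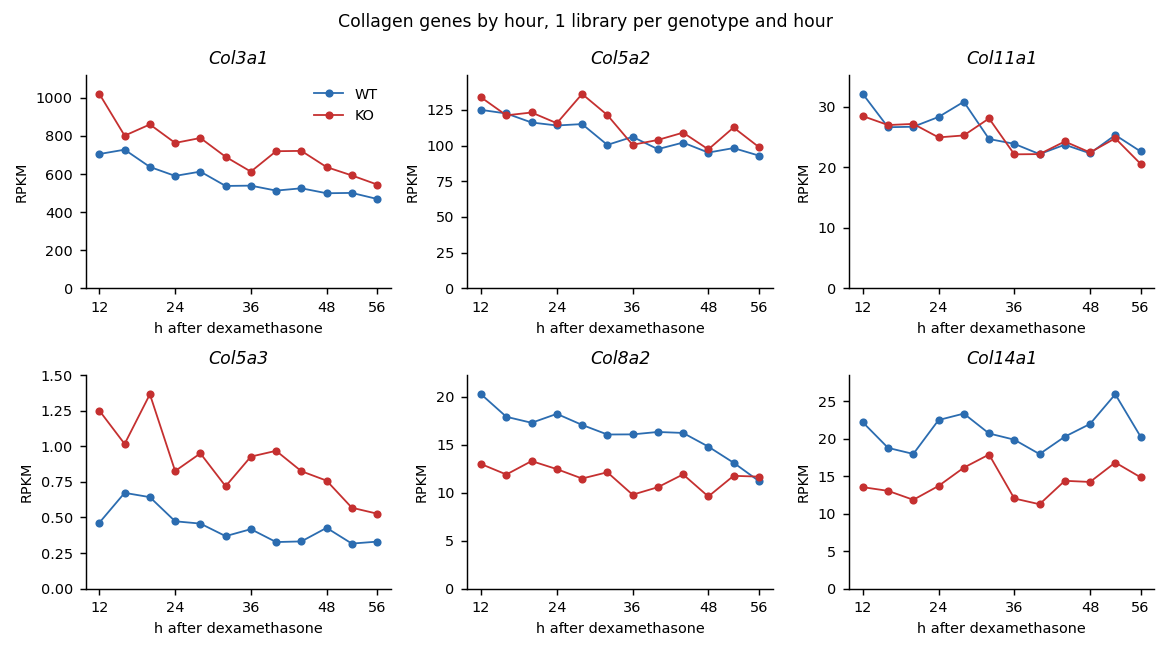
RPKM against hours after dexamethasone for 6 collagen genes, 1 library per point, WT in blue and KO in red, with axes starting at 0. Col3a1, Col5a2, Col11a1 and Col5a3 decline in both genotypes, Col8a2 declines in WT, and Col14a1 lies lower in KO throughout.

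No 24 h rhythm was called for a collagen gene. The limma test of the cosine and sine terms passed for 0 of 41 in WT (0.0463% of all genes) and for 0 in KO (0.0728% of all genes). A difference in rhythm passed for 0 (0% of all genes). At an unadjusted p under 0.05 there were 6 collagen genes in WT, 4 in KO and 2 for the difference (Col22a1 and Col6a5), while 7.57%, 7.92% and 4.82% of all genes reached that level. Col14a1 was below it in both genotypes, with a log2 amplitude of 0.18 in WT (unadjusted p = 0.0129 by limma, adjusted 0.571) and 0.23 in KO (0.00174, adjusted 0.406). Its fitted peaks were 4.12 and 4.91 h after a multiple of 24 h from dexamethasone.

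Genes that modify, export and cross-link collagen were described from a list of 59 rows, of which 55 were tested: 7 were higher in KO, 7 were lower and 41 did not pass, with a median difference of 0.03 on the log2 scale. The share in each direction was 12.7%, near the 11.2% higher and 14.7% lower of all genes. Calls in this list were not followed under the processing alternatives given below for the collagen genes. Among the hydroxylation and glycosylation genes 2 of 14 were higher and 0 lower, and both were α subunits of prolyl 4-hydroxylase, the enzyme that stabilises the triple helix. P4ha1 had 31.6, 35.3 and 36.6 RPKM in WT and 38.0, 40.3 and 42.2 in KO (0.19 ± 0.03, limma adjusted p = 8.95e-06). P4ha2 had 22.2, 24.4 and 28.9 in WT and 27.7, 31.9 and 34.7 in KO (0.32 ± 0.04, adjusted p = 1.57e-05). The KO libraries of P4ha1 lay above each WT library, and those of P4ha2 overlapped the highest WT library.

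In the cross-linking list, 3 of 6 rows were higher and 1 lower. Lox, the main lysyl oxidase, had 199, 236 and 277 RPKM in WT and 249, 286 and 356 in KO (0.36 ± 0.06, limma adjusted p = 0.000203). Loxl4 (0.34 ± 0.06, adjusted p = 0.000106) and the more abundant of 2 rows for Loxl2 (0.09 ± 0.03, adjusted p = 0.0466) were higher, while Loxl1, which acts on elastic fibres, was lower (-0.11 ± 0.04, adjusted p = 0.0429). Of the 10 folding and export genes, Sec24d, a coat subunit of the vesicles that carry procollagen, was higher (0.08 ± 0.03, adjusted p = 0.0482). The collagen chaperone Serpinh1 did not pass (0.04 ± 0.05, adjusted p = 0.568).

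Propeptide processing and fibril partner genes held none that were higher in KO. Of the 9 tested processing genes, Adamts2, the N-propeptidase of type I collagen, was lower (-0.19 ± 0.06, limma adjusted p = 0.0245), and so was Mep1a, a meprin metalloprotease, with medians of 0.654 and 0.275 RPKM (-1.07 ± 0.28, adjusted p = 0.00653). Of the 8 fibril partners, the small proteoglycans Fmod (-0.11 ± 0.04, adjusted p = 0.0279) and Lum (-0.15 ± 0.05, adjusted p = 0.0225) and the tenascin Tnxb (-0.16 ± 0.06, adjusted p = 0.0445) were lower. Of the 8 tested receptors, the kinase Ddr2 was higher (0.37 ± 0.06, adjusted p = 0.000194), and the integrin subunit Itga10 was lower (-0.43 ± 0.09, adjusted p = 0.00133).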

How the data were processed

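RNA was from differentiated mES cells, with 12 WT and 12 KO libraries. Per the submitters' processing notes and the methods of the study, the authors demultiplexed reads with bcl2fastq, trimmed with Trimmomatic 0.36, mapped to GRCm38 with STAR 2.5.4b, removed alignments of a mapping quality under 10 with SAMtools and counted on exons of UCSC known canonical genes with HOMER. The deposited values are RPKM, and the exonic length deposited beside them turned these into RPM for the filter. Back-calculated fragments, used only to describe depth, were within 0.005 of a multiple of 0.5 for 100% of values. The kit does not mark strand.

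Groups and hours come from the sample labels. Values were tested as log2(RPKM + 0.1) with limma (version 3.58.1, R version 4.3.3), so differences of low genes are understated, and with permutation tests in Python 3.11.15 (numpy 2.4.6, pandas 2.3.3, scipy 1.17.1). Figures were drawn with matplotlib 3.10.9. The limma fits were tested on simulated data. P-values measure the spread between libraries of different hours, since no hour has a replicate. MetaCycle was not run.

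The members and lists were chosen with earlier results of these data known. The rule for named genes took, in each class, the member with the highest mean RPKM and those with the largest rise and fall, each member past a test, the chains of the 5 ratios, members below the filter, and pathway genes past the threshold. Other named genes were chosen after their values were seen. Alternatives covered the pseudocount, the filter, scaling, covariates, the hours used, the time point as a block, the period and the ratio scale. Promoter sequence is from RefSeq on GRCm38.p6. Windows of 9 collagen genes, protein sequences, Col21a1 and quantitative PCR were not analysed here.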

Additional observations from a re-analysis of the deposited data

How the results depend on the processing

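Of the 18 collagen genes called between the genotypes, 0 reversed under 12 alternatives, and 4 (Col5a3, Col8a2, Col14a1 and Col15a1) were past the threshold under each alternative that tested them and with each time point left out. With only 12 to 32 h, which leaves 6 hours a genotype, 7 were called (4 higher, 3 lower), and with only 36 to 56 h 8 were (6 higher, 2 lower). Calls over all 15112 genes fell as well, from 3918 to 1115 and 1903 in these spans. Col1a1, Col1a2, Col4a3, Col5a1, Col8a1, Col9a2, Col9a3 and Col12a1 lost their call in both spans, Col7a1, Col17a1 and Col18a1 in the earlier and Col4a4 and Col16a1 in the later. With a filter at 1 RPKM, which removes low genes, 3 lower genes were left. Calls over all genes were then 3161. Leaving out 1 time point gave 16 to 19 calls, with 10 to 12 higher and 6 to 7 lower. Over all genes it gave 3113 to 3948 calls.

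WT and KO libraries of the same hour are matched by that hour in the labels, which do not say whether they were handled together. Their deviations over 11787 genes correlated at -0.21 to 0.43, with r over 0.1 for 9 of 12 pairs, and at -0.02 for other hours. With the hour as a replicate block, 23 collagen genes were called (15 higher, 8 lower), among them the 18 and Col5a2, Col6a1, Col11a2, Col24a1 and Col28a1. Over all genes the block gave 4212 calls in place of 3918. Exchanging WT and KO within hours (the replicate block for ratios, exact sign-flip test) left 1 of the 2 ratios, with Col1a1/Col1a2 at an adjusted p of 0.0555. Without rhythm terms, 1 collagen gene (Col6a5) rose over time in KO. Calls of rhythm and of differences in rhythm or trend stayed at 0 under each alternative run.

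Each hour has 1 library, so a value at a single hour has no error. For genes with a mean under 100 fragments in either genotype, among them Col4a3, Col4a4, Col5a3 and Col9a3, counting error adds to the spread.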

Other observations

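Marker lists that were not set beside a collagen class above gave the following values. The 3 yolk sac endoderm markers (Afp, Ttr and Apoa1) had a summed level of 75.2 to 1003 RPKM in WT and 69.7 to 1003 in KO, highest at 16 h in both genotypes, and 0 of 3 passed the limma test between the genotypes. The 2 leukocyte markers Ptprc and Csf1r summed to 38.3 to 46.5 RPKM in WT and 38.8 to 44.6 in KO, with 0 of 2 past the test. Of the 3 markers of neurons and glia 1 was lower in KO, the astrocyte gene Gfap (limma adjusted p = 6.03e-06). It had 0.165, 2.36 and 20.9 RPKM as the lowest, median and highest value in WT and 0, 0.0196 and 0.189 in KO. Its mean was 4.42 RPKM in WT and 0.0415 in KO, so it entered the test through its WT level. Its highest value was again in the WT library at 36 h. Of the 5 bone markers 2 were tested and 0 passed, with a summed level of 0.727 to 13.9 RPKM in WT and 0.767 to 1.12 in KO.

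Without the WT library at 36 h, 19 collagen genes were called between the genotypes in place of 18: the same 18 genes and Col6a1. Over all genes, 3531 were called in place of 3918. The alternative was chosen after seeing the data, as was leaving out the libraries of each hour in turn.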
